A study of Rattus norvegicus with 12 samples.

Results

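The genes of the proteasome, the barrel-shaped protease that degrades ubiquitin-tagged proteins in the cytosol and nucleus, were examined in cultured rat heart muscle cells exposed to corticosteroids. All genes were taken whose single annotated symbol begins with Psma, Psmb, Psmc, Psmd, Psme, Psmf or Psmg, with 1 probe set per gene, the one with the highest mean signal. This gave 46 of the 14217 named genes on the array, drawn from 60 probe sets. The 46 comprised 7 alpha and 6 beta subunits of the core, 3 immunoproteasome subunits, 6 ATPases and 11 other subunits of the regulatory particle, 4 activators or inhibitors and 7 assembly factors. The last 2, Psmc3ip and Psme3ip1, share only the prefix: Psmc3ip encodes a factor of meiotic recombination and Psme3ip1 a protein that binds an activator. All 46 genes passed the filter on low signal and were tested. Psmb6 and Psme3 appeared only on probe sets with several annotated genes and were left out.

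The cells were primary cultures enriched for cardiomyocytes, taken from ventricles of 1-day-old Wistar rats by differential adhesion, so that fibroblasts and other cells of the heart can remain. After 24 h in OPTI-MEM they received cortivazol (CVZ, a synthetic glucocorticoid), corticosterone (COR, the main glucocorticoid of the rat), aldosterone (ALD, the main mineralocorticoid) or ethanol vehicle for 3 h. In 4 further groups, CVZ+RU486, COR+RU486, ALD+RU486 and RU486 with vehicle, the cells had first received 10 µM RU486, which blocks the glucocorticoid receptor. The 12 arrays came from 2 experiments of the same protocol: CVZ, COR, ALD and vehicle had 1 array in each experiment (n = 2), and each RU486 group had 1 array, in the second experiment (n = 1). The labels used here give no ligand doses, and do not say whether the experiments used separate litters, so a p-value reflects no more than the spread among these 12 arrays. Signals are the deposited array intensities, in multiples of the array's median. Differences are log2 differences from a limma fit over 18625 probe sets with the experiment as a block, and a gene was called where its p, adjusted by Benjamini and Hochberg's method over all of them, was below 0.05.

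The proteasome consists of a core particle, in which rings of beta subunits carry the proteolytic sites between outer rings of alpha subunits, and a regulatory particle that binds, unfolds and feeds in ubiquitinated proteins. Cells exposed to interferon exchange the catalytic subunits Psmb5, Psmb6 and Psmb7 for Psmb8, Psmb9 and Psmb10, which makes the immunoproteasome and favours peptides for display on class I molecules. In muscle, the ubiquitin-proteasome pathway is the main route of breakdown of contractile proteins, and glucocorticoids are known to increase it in skeletal muscle.

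All 10 cardiomyocyte markers were measured, and of 4 known glucocorticoid targets (Fkbp5, Klf15, Per1 and Tsc22d3) all 4 rose under CVZ and COR and 3 under ALD. The 2 experiments differed widely: 38.9% of all probe sets tested were called between them. All 8 fibroblast markers were lower in the second experiment, as were the 2 tested erythroid markers, where 28.2% of all probe sets were called lower. The summed fibroblast signal was 192 to 201 on its arrays without RU486 against 361 to 440 in the first experiment. Of 10 cardiomyocyte markers 4 were called lower and 1 higher. Also called lower were 1 of 5 smooth muscle, 1 of 4 tested endothelial and 2 of 8 tested macrophage and leukocyte markers.

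Promoter sequence of 42 of the 46 genes was found in RefSeq's rat assembly GRCr8, as windows of 250 bases before to 50 bases after the transcript start. Of these, 3 are shown, 5′ to 3′ on the gene's strand with motif matches in capitals: Psma6, the only gene called under a ligand or RU486 by its chosen probe set, and Psmb5 and Psmb8, the standard and immune forms of the same catalytic position.

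Psma6, chr6:78514097-78514396, plus strand: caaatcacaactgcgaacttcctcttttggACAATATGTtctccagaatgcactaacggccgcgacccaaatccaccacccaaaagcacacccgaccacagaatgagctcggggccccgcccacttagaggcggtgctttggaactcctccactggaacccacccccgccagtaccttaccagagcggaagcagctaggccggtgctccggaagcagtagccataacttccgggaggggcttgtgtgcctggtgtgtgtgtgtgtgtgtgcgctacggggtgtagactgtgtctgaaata

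Psmb5, chr15:32047330-32047629, minus strand: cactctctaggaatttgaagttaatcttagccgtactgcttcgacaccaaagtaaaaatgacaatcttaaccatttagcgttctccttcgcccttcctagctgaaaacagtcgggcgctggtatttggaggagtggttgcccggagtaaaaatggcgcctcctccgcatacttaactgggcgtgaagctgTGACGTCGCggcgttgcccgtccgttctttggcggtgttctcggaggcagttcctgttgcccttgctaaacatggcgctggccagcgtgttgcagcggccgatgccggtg

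Psmb8, chr20:4656982-4657281, minus strand: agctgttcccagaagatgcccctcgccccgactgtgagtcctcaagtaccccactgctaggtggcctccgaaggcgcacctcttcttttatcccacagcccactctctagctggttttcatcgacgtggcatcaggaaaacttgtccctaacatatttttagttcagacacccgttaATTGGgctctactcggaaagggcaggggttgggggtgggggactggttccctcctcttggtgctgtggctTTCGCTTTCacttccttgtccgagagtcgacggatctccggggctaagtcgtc

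The match in Psma6 is ACAATATGT, 220 to 212 bases before the start, to the core ACANNNTGT of the glucocorticoid response element. This window lies inside the gene as RefSeq places it (chr6:78500676-78531693), not at its outer start, and other starts were not searched. Among the 42 promoters Psma6 alone held this core, a share of 2.38% against 6.86% of all 33469 rat promoter windows of the same length. In Psmb5 the match is TGACGTCGC, 60 to 52 bases before the start, to the core TGACNNNGC of the antioxidant response element, the site used by Nfe2l1 and Nfe2l2. This core stood in 7 of the 42 promoters (16.7%) and in 12.1% of all windows. In Psmb8 the matches are TTCGCTTTC across the start, the reverse complement of the interferon factor core GAAANNGAA, and ATTGG, a reversed CCAAT box. The interferon factor core stood in 9 promoters (21.4%), those of Psmb8, Psmb10 and Psme2 among them, against 9.71% of all windows, and CCAAT in 22 promoters (52.4%) against 37.5%. Both strands were searched and the motifs shown here did not overlap. A match describes letters, not binding.

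Psma6, an alpha-ring subunit of the core (probe set 1369930_at), was the only gene of the 46 called in any comparison of ligands with vehicle. In the first experiment its signal was 134.9 with CVZ, 126.4 with COR and 119.5 with ALD, against 109.7 with vehicle. In the second it was 89.85 with CVZ, 81.26 with COR and 76.34 with ALD, against 70.87 with vehicle. The order CVZ, COR, ALD, vehicle was the same in both experiments, although every array of the first lay above every array of the second.

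The CVZ difference was 0.32 ± 0.07 (log2, SE; 1.25-fold; 0.30 in the first and 0.34 in the second experiment) with an adjusted p of 0.0079 from limma. The COR difference of 0.20 was the same in both experiments but was not called (adjusted p = 0.18), and neither was the ALD difference of 0.12 (adjusted p = 0.7). Averaged over the ligands the difference was 0.21 (adjusted p = 0.042). The call under CVZ was lost without either CVZ array (adjusted p = 0.078 without that of the first experiment and 0.15 without that of the second) and under quantile normalization (0.20, adjusted p = 0.076). RefSeq lists 5 pseudogenes named after Psma6, and how far the probe set reads them was not tested.

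**Figure D1:**
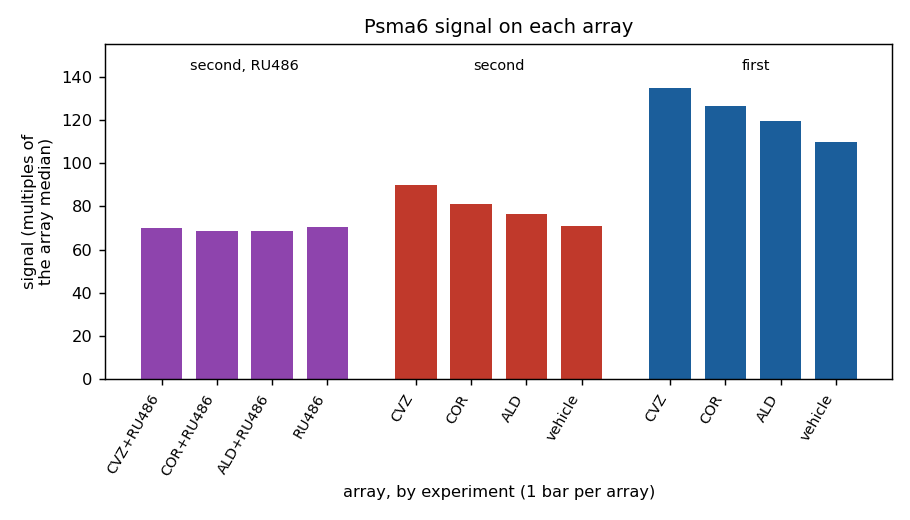
Signal of Psma6 (y axis, multiples of the array median) on each of the 12 arrays (x axis, 1 bar per array), by experiment and RU486. Within each experiment CVZ is highest and vehicle lowest among the arrays without RU486, and the 4 RU486 arrays lie between 68.43 and 70.45.

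With RU486 the Psma6 signal was 70.14 with CVZ, 68.79 with COR, 68.43 with ALD and 70.45 with vehicle, so none of these arrays reached a ligand array of the same experiment. RU486 lowered Psma6 on average over the 4 backgrounds, with a difference of -0.19 ± 0.05 (log2, SE; adjusted p = 0.044). By background the difference was -0.36 with CVZ, -0.24 with COR, -0.16 with ALD and -0.01 with vehicle. The test of whether the ligand response differed with RU486 gave -0.24 and was not called (adjusted p = 0.52). The RU486 call was lost on leaving out any 1 of 10 of the arrays, each of the 6 ligand arrays without RU486 among them, with differences of -0.14 to -0.20 and adjusted p-values up to 0.34.

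Apart from Psma6, no proteasome gene was called under CVZ, where 7.96% of all probe sets were, so the 1 of 46 lay below that background. COR called 0 of the 46 genes (3.39% of all probe sets) and ALD called 0 (0.95%). The mean of the 3 ligands called Psma6 alone (5.44% of all probe sets). Between ligands, 0 of the 46 were called for CVZ against COR (0.966% of all), CVZ against ALD (4.25%) or COR against ALD (0.295%). As the doses are not given, a difference or its lack between ligands is not one at matched dose.

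The intervals given here are not adjusted for the number of genes and describe these 12 arrays under the deposited scaling. For CVZ against vehicle the 95% interval stayed within a 1.5-fold change for 43 of the 46 genes, including all 13 core and all 17 regulatory subunits. The 3 exceptions were Psmb8, Psmb9 and Psmc3ip. For COR the interval stayed within 1.5-fold for 42 genes, and for ALD for 43. Before adjustment, 5 intervals excluded 0 for each ligand.

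The small differences leaned upwards with the deposited scaling. Under CVZ 35 of the 46 genes had a positive and 11 a negative difference, with a median of 0.06 against 0.01 over all probe sets, but under quantile normalization 26 were negative and the median was -0.01. The median was 0.05 under COR and 0.06 under ALD, against 0.01 and 0.02 over all probe sets. By class, the CVZ median was 0.07 in the core (-0.02 under quantile normalization), 0.11 in the regulatory particle (0.02 under quantile normalization and 0.05 under trimmed-mean scaling) and 0.00 in the immunoproteasome. Only 18 of the 46 genes were above vehicle under CVZ in both experiments, and 5 were below it in both. The comparisons of ligands share the vehicle arrays and are not independent of each other.

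**Figure D2:**
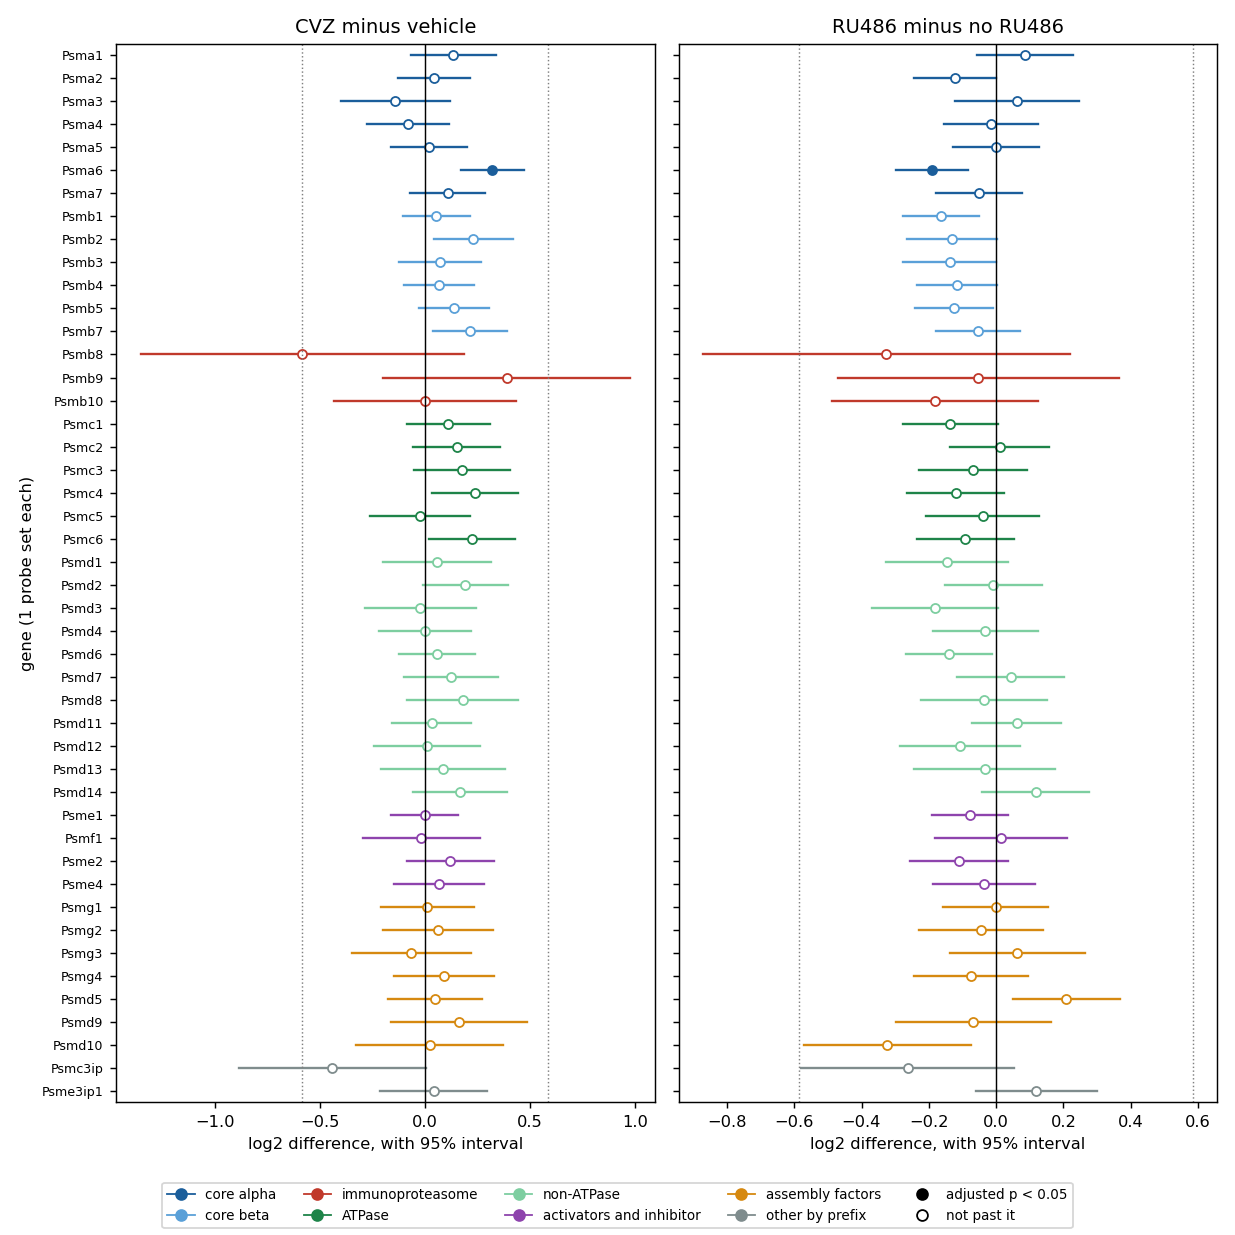
Log2 differences (x axes) with 95% intervals for the 46 genes (y axis), CVZ minus vehicle on the left and RU486 minus no RU486 over 4 backgrounds on the right. Colours give the class, filled points an adjusted p below 0.05 and dotted lines a 1.5-fold change. Psma6 is the only filled point in either panel, and the intervals of Psmb8 and Psmb9 are the widest under CVZ.

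Among the catalytic subunits of the standard core, Psmb5 (the chymotrypsin-like site) and Psmb7 (the trypsin-like site) were not called under any ligand. In the first experiment Psmb5 had signals of 69.3 with CVZ, 66.9 with COR and 68.3 with ALD, against 61.8 with vehicle, and in the second 54.0 with CVZ, 49.7 with COR and 53.1 with ALD, against 50 with vehicle. On the RU486 arrays Psmb5 had 48.4 with CVZ, 45.9 with COR, 45.6 with ALD and 49.7 with vehicle. The CVZ difference of Psmb5 was 0.14 (95% interval -0.03 to 0.30, adjusted p = 0.38).

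Psmb7 had 42.8 with CVZ, 44.1 with COR and 46.3 with ALD, against 36.9 with vehicle, in the first experiment. In the second it had 36.9 with CVZ, 36.2 with COR and 37.2 with ALD, against 31.9 with vehicle, and on the RU486 arrays 32.5 with CVZ, 34.5 with COR, 33.0 with ALD and 36.9 with vehicle. Every ligand array without RU486 thus lay above its vehicle array, but the CVZ difference of 0.21 (95% interval 0.04 to 0.39) had an adjusted p of 0.16. The COR difference was 0.22 (adjusted p = 0.23) and the ALD difference 0.27 (adjusted p = 0.21). Averaged over the ligands the Psmb7 difference was 0.24, above that of Psma6, with an adjusted p of 0.058, and it was called with the filter at the 60th percentile.

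Psma3, another alpha subunit, had the lowest CVZ difference of the core. Its signals in the first experiment were 11.2 with CVZ, 12.1 with COR and 12.1 with ALD, against 12.6 with vehicle, and in the second 7.69 with CVZ, 8.46 with COR and 6.99 with ALD, against 8.37 with vehicle. On the RU486 arrays Psma3 had 8.64 with CVZ, 8.70 with COR, 8.05 with ALD and 7.47 with vehicle. The CVZ difference was -0.14 (adjusted p = 0.62).

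In the regulatory particle the ATPase Psmc4 had the highest CVZ difference. Psmc4 had 33.2 with CVZ, 32.2 with COR and 33.1 with ALD, against 30.1 with vehicle, in the first experiment, and 27.3 with CVZ, 22.8 with COR and 22.7 with ALD, against 21.7 with vehicle, in the second. Its RU486 arrays had 20.8 with CVZ, 21.8 with COR, 21.6 with ALD and 22.4 with vehicle. The difference of 0.24 (95% interval 0.03 to 0.44) was not called (adjusted p = 0.18). Averaging Psmc4 with its other probe set gave a log2 difference of 1.20 (adjusted p = 0.014 from limma). That other set failed the filter, with a mean signal of 0.180, near the 0.0696 added before taking log2.

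The immunoproteasome subunits had the widest intervals of the catalytic subunits, and none was called under a ligand or RU486. Psmb8, which replaces Psmb5, had 0.919 with CVZ, 0.906 with COR and 1.02 with ALD, against 1.29 with vehicle, in the first experiment. In the second it had 0.732 with CVZ, 0.714 with COR and 0.697 with ALD, against 1.24 with vehicle. On the RU486 arrays it had 0.819 with CVZ, 0.613 with COR, 0.503 with ALD and 0.669 with vehicle. Both vehicle arrays without RU486 lay above all 10 other arrays. The share of all probe sets for which this held was not counted. The mean signal of Psmb8 was 0.844, below the array median and near the filter's cut (geometric mean 0.630).

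For Psmb8 the CVZ difference was -0.59 (95% interval -1.36 to 0.18, adjusted p = 0.44), the COR difference -0.61 (adjusted p = 0.54) and the ALD difference -0.55 (adjusted p = 0.74). RU486 alone differed from vehicle by -0.71 (adjusted p = 0.87). These 4 differences share the vehicle arrays.

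Psmb9, which replaces Psmb6, had 2.43 with CVZ, 3.48 with COR and 2.19 with ALD, against 1.97 with vehicle, in the first experiment, and 1.18 with CVZ, 1.03 with COR and 1.07 with ALD, against 0.828 with vehicle, in the second. With RU486 it had 0.939 with CVZ, 1.09 with COR, 1.00 with ALD and 0.904 with vehicle. The ligand arrays without RU486 lay above their vehicle array in both experiments, opposite to Psmb8, but the CVZ difference of 0.39 was not called (95% interval -0.20 to 0.98, adjusted p = 0.53). The difference between the 2 genes was not tested.

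Psmb10, which replaces Psmb7, had 2.70 with CVZ, 3.29 with COR and 3.13 with ALD, against 2.39 with vehicle, in the first experiment, and 1.97 with CVZ, 2.18 with COR and 2.53 with ALD, against 2.23 with vehicle, in the second. With RU486 it had 1.89 with CVZ, 1.98 with COR, 1.97 with ALD and 1.97 with vehicle. The CVZ difference was 0.00 (95% interval -0.43 to 0.43), with opposite signs in the experiments (0.17 in the first and -0.17 in the second).

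**Figure D3:**
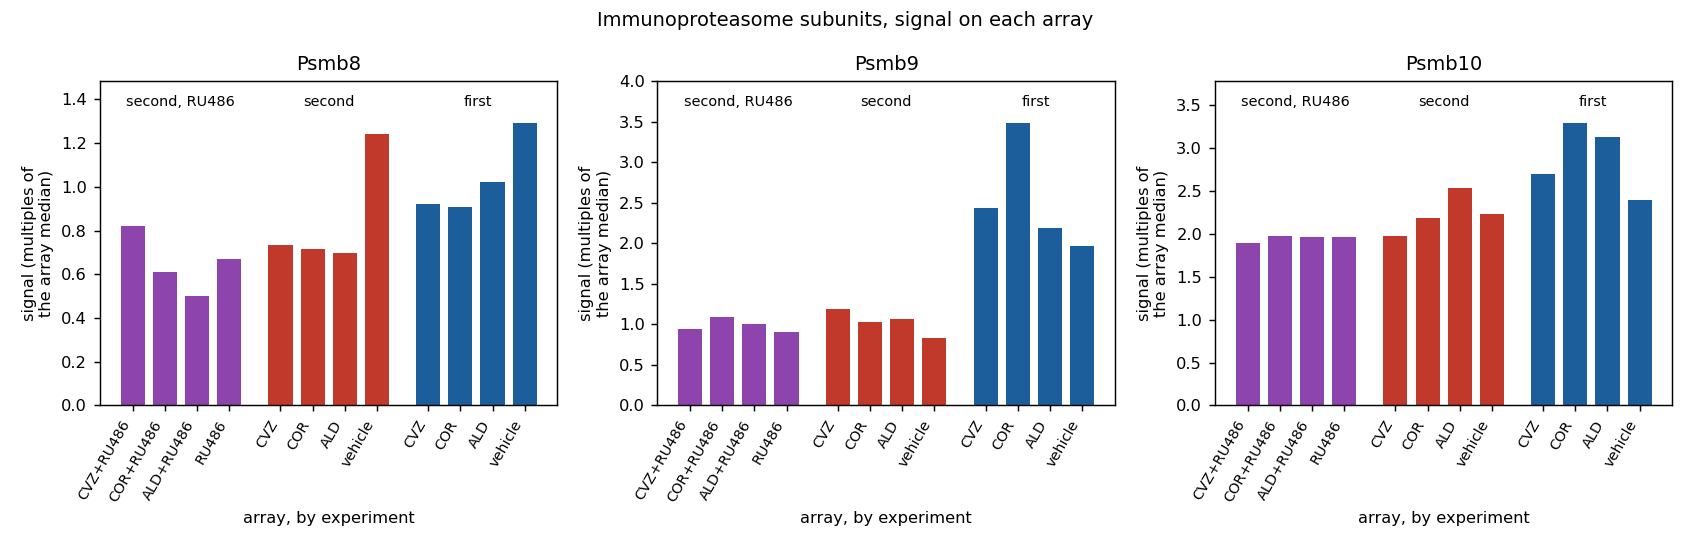
Signals (y axes, multiples of the array median) of Psmb8, Psmb9 and Psmb10 on each of the 12 arrays (x axes, 1 bar per array), by experiment and RU486. Psmb8 is highest on the 2 vehicle arrays (1.24 and 1.29), and Psmb9 is higher on the 4 arrays of the first experiment than on all 8 of the second.

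The activators Psme1 and Psme2, which form a ring that opens the core and are induced by interferon with the immune subunits, stayed near their vehicle level. Psme1 had 147.6 with CVZ, 141.6 with COR and 133.2 with ALD, against 148.2 with vehicle, in the first experiment, and 108.5 with CVZ, 109.0 with COR and 115.5 with ALD, against 108.4 with vehicle, in the second. With RU486 Psme1 had 103.3 with CVZ, 105.1 with COR, 103.3 with ALD and 106.5 with vehicle. Its CVZ difference was 0.00, with a 95% interval of -0.16 to 0.16.

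Psme2 had 25.2 with CVZ, 26.7 with COR and 26.2 with ALD, against 23.2 with vehicle, in the first experiment, and 20.3 with CVZ, 18.8 with COR and 20.7 with ALD, against 18.7 with vehicle, in the second. Psme2 had 17.1 with CVZ, 17.3 with COR, 19.3 with ALD and 19.0 with vehicle on the RU486 arrays. The CVZ difference of 0.12 was not called (adjusted p = 0.6).

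Psmc3ip had the second lowest CVZ difference of the 46, -0.44 (adjusted p = 0.28). It had 3.39 with CVZ, 4.89 with COR and 4.55 with ALD, against 4.70 with vehicle, in the first experiment, and 2.85 with CVZ, 2.22 with COR and 3.47 with ALD, against 3.84 with vehicle, in the second. With RU486 it had 2.50 with CVZ, 2.90 with COR, 2.37 with ALD and 2.34 with vehicle. CVZ lay below vehicle in both experiments, while COR did so in the second alone.

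By the chosen probe sets, RU486 called Psma6 alone of the 46 genes over the 4 backgrounds, where it called 4.02% of all probe sets. The median difference of the 46 genes was -0.06, against 0.01 over all probe sets, and 35 were negative (31 under quantile normalization). The interval stayed within 1.5-fold for 45 genes, Psmb8 being the exception. The median was -0.12 in the core (-0.07 under quantile normalization), -0.04 in the regulatory particle and -0.18 in the immunoproteasome. Among cell type markers, some were lower with RU486 too, where 403 of 18625 probe sets were called lower. Of 10 cardiomyocyte markers 4 were called lower (Myh6, Tnni3, Myl2 and Pln), with a median of -0.17. Of 5 smooth muscle markers 1 was called lower (Tagln), with a median of -0.39. Of 4 endothelial markers 1 was called lower (median -0.19), and of 8 macrophage and leukocyte markers 1 (median -0.08). Of 8 fibroblast markers (median -0.12) and 2 erythroid markers (median -0.01), 0 were called. The summed cardiomyocyte signal was 1998 to 2233 on the RU486 arrays, against 2243 to 2518 on the others of the second experiment. The part of these markers in the proteasome differences was not tested.

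Array by array, 36 of the 46 genes were lower with RU486 in CVZ cells (52.5% of all probe sets), 29 in COR cells (45.0%), 38 in ALD cells (56.0%) and 23 in vehicle cells (39.6%). These are signs of differences between single arrays, in which all probe sets varied in the same order, and whether the backgrounds differ for the 46 genes as a set was not tested. The median level of the 13 core genes, relative to each gene's mean over the 12 arrays, was -0.26 with CVZ+RU486 against -0.08 with CVZ, and -0.14 with RU486 alone against -0.19 with vehicle. RU486 alone against vehicle called 0 of the 46 genes (0.129% of all probe sets), ligand plus RU486 against RU486 alone called 0 (0% of all, with 462 probe sets at an unadjusted p below 0.05), and the interaction of ligand and RU486 called 0 (1.09% of all). These tests rest on lone arrays. Interaction intervals stayed within 1.5-fold for 36 genes. The RU486 arrays also had the highest medians before division (35.4 to 37.7, against 22.4 to 33.7 on the other arrays of the second experiment), and their part in these differences was not tested.

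The 4 RU486 arrays lay below all 4 others of the second experiment for 7 genes (Psma6, Psmb1, Psmb3, Psmb5, Psmc1, Psmd3 and Psme1), or 7 of 46 against 3.6% of all probe sets. The number of genes below was 5 under quantile normalization (685 of 18625 probe sets) and 8 under trimmed-mean scaling (775 of 18625). Of the 46 genes 36 lay in the highest band of mean signal, and a comparison with probe sets of similar signal was not made. The RU486 arrays lay above the 4 others for 1 gene, Psmd5, against 5.41% of all. Psmd5 is a chaperone that holds a part of the regulatory particle's base during assembly. It had 16.4 with CVZ+RU486, 17.3 with COR+RU486, 16.0 with ALD+RU486 and 18.4 with RU486, against 14.4 with CVZ, 14.1 with COR, 15.8 with ALD and 14.5 with vehicle in the second experiment. Its first-experiment arrays had 16.2 with CVZ, 13.8 with COR, 14.98 with ALD and 15.04 with vehicle. The RU486 difference of 0.21 had the highest value of the 46 and was not called (adjusted p = 0.15).

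Psmd10, a further chaperone of the base, also known as the oncoprotein gankyrin, had 3.19 with CVZ+RU486, 3.22 with COR+RU486, 3.82 with ALD+RU486 and 3.19 with RU486, against 4.69 with CVZ, 3.73 with COR, 3.58 with ALD and 4.97 with vehicle. In the first experiment it had 6.25 with CVZ, 5.77 with COR, 5.97 with ALD and 5.71 with vehicle. Its RU486 difference of -0.32 was not called (95% interval -0.57 to -0.07, adjusted p = 0.16). In ALD cells it had the opposite sign, 0.09.

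Psmd14, the deubiquitinating enzyme of the regulatory particle, had 16.8 with CVZ+RU486, 17.8 with COR+RU486, 16.7 with ALD+RU486 and 18.4 with RU486, against 15.3 with CVZ, 16.2 with COR, 17.9 with ALD and 14.9 with vehicle. In the first experiment it had 26.7 with CVZ, 28.9 with COR and 26.3 with ALD, against 21.9 with vehicle. Its RU486 difference was 0.12 (adjusted p = 0.5), and it was -0.04 when its probe sets were averaged.

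Psme3ip1 had 9.0 with CVZ+RU486, 8.10 with COR+RU486, 9.64 with ALD+RU486 and 8.53 with RU486, against 7.74 with CVZ, 8.25 with COR, 8.53 with ALD and 7.88 with vehicle. In the first experiment it had 10.2 with CVZ, 9.42 with COR, 10.4 with ALD and 9.48 with vehicle. Its RU486 difference of 0.12 was not called (adjusted p = 0.56).

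The wider contrast lay between the experiments. With the deposited scaling 31 of the 46 genes were lower in the second experiment and 0 higher, against 28.2% of all probe sets called lower. The median difference was -0.35, against -0.10 over all probe sets. With that scaling, all 4 groups run in both experiments showed a lower value in the second for 35 genes and a higher one for 2. The share of all probe sets for which this held was not counted. As the arrays read whole cultures, fewer cells of a type and less RNA per cell cannot be told apart.

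The number depended on how the arrays were scaled. Under trimmed-mean scaling 19 of the 46 were lower (16.3% of all probe sets) and 5 higher (23.7%), and under quantile normalization 13 were lower (17.4% of all) and 9 higher (19.1%). Across all probe sets the deposited scaling gave a median of -0.10, trimmed-mean scaling 0.09 and quantile normalization 0.03. Under all 3 scalings 12 genes were lower: the alpha subunits Psma1, Psma2, Psma3 and Psma6, the beta subunits Psmb1 and Psmb4, the immune subunit Psmb9, the ATPases Psmc1 and Psmc4, Psmd8 and Psmd14 of the regulatory particle, and the activator Psme4. The share of all probe sets called lower under all 3 scalings was not counted, so the 12 have no background beside them. The 9 genes higher under quantile normalization were Psma4, Psmc6, Psmd1, Psmd2, Psmd3, Psmd5, Psmd6, Psmg3 and Psmg4.

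Core subunits had a lower median than subunits of the regulatory particle under each scaling. Of the 13 core genes 12 were called lower, Psma4 being the exception, with a median of -0.45 (-0.25 under trimmed-mean scaling and -0.17 under quantile normalization). Of the 17 regulatory genes 10 were called lower, with a median of -0.25 (-0.05 and 0.02 under the same alternatives). Within the regulatory particle 4 of 6 ATPases and 6 of 11 other subunits were called lower, and the other classes gave 3 of 4 activators and inhibitors, 3 of 7 assembly factors and 1 of 3 immune subunits. The difference between classes was described and not tested.

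Signal strength goes with this pattern. Of the 46 genes 36 lay in the highest 20% of tested probe sets by mean signal, a band in which the median difference between experiments was -0.24 and 56.1% were called lower, against 7.60% in the lowest band. The count of 31 of 46 is to be read against both the 56.1% of that band and the 28.2% over all probe sets. The part of signal strength in the result, and that of the cell type markers that were also called lower, was not tested.

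**Figure D4:**
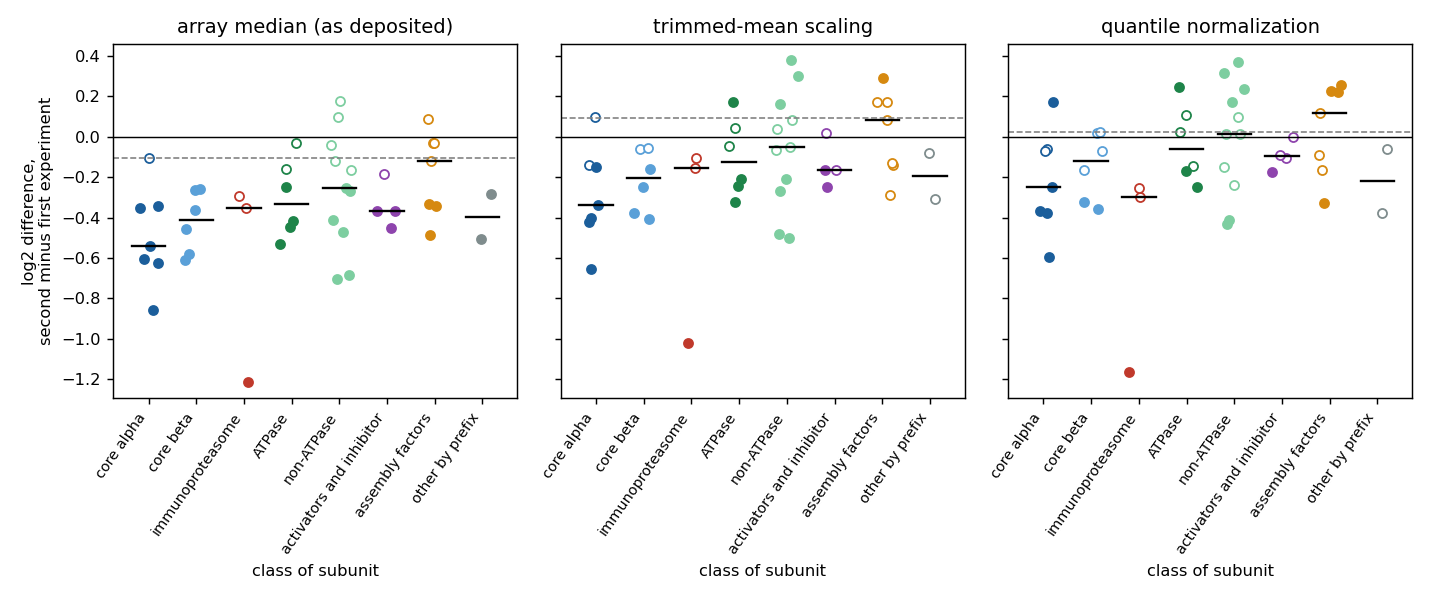
Log2 difference between experiments, second minus first (y axis), for the 46 genes by class (x axes) under 3 scalings of the arrays. Filled points have an adjusted p below 0.05, black bars are class medians and the dashed line is the median of all probe sets. The core medians are -0.45, -0.25 and -0.17 from left to right, computed over alpha and beta subunits together, and Psmb9 is the lowest point in each panel.

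Psmb9 had the lowest value between the experiments: 1.18 with CVZ, 1.03 with COR, 1.07 with ALD and 0.828 with vehicle in the second, against 2.43 with CVZ, 3.48 with COR, 2.19 with ALD and 1.97 with vehicle in the first. The groups did not overlap, and the difference was -1.21 ± 0.20 (log2, SE; adjusted p = 0.00016). It was -1.02 under trimmed-mean scaling and -1.17 under quantile normalization. Psmb8 (-0.29, adjusted p = 0.39) and Psmb10 (-0.35, adjusted p = 0.064) were not called. Immune subunits are known to be high in macrophages and leukocytes. The summed signal of their markers was 24.1 to 26.8 in the second experiment without RU486 and 24.6 to 28.9 in the first. Of their 8 tested markers 2 were called lower (28.2% of all probe sets) and 0 higher, and the median difference of the 8 was 0.13.

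Psma2, an alpha subunit, had 48.2 with CVZ, 46.8 with COR, 46.7 with ALD and 44.7 with vehicle in the second experiment, against 86.3 with CVZ, 83.8 with COR, 79.9 with ALD and 88.0 with vehicle in the first. The groups did not overlap, and the difference was -0.86 ± 0.06 (log2, SE; adjusted p = 2.9e-08), the second experiment standing at 0.552 times the first. With RU486 Psma2 had 40.7 with CVZ, 44.8 with COR, 41.9 with ALD and 44.0 with vehicle. Its CVZ difference was 0.04.

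Psmd8, a subunit of the regulatory particle's lid, had 16.8 with CVZ, 16.4 with COR, 11.3 with ALD and 14.7 with vehicle in the second experiment, against 25.3 with CVZ, 24.1 with COR, 23.9 with ALD and 22.5 with vehicle in the first. The difference was -0.70 ± 0.09 (adjusted p = 1.6e-05). Psmd8 after RU486 had 14.6 with CVZ, 14.7 with COR, 13.1 with ALD and 14.8 with vehicle. The ALD array of the second experiment was the lowest of all 12.

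Without RU486, the second experiment's arrays lay below all of the first for 26 genes (24.2% of all probe sets) and above them for 1, Psmd3 (7.55% of all), a scaffold subunit of the lid. Under trimmed-mean scaling the counts were 17 below and 5 above, against 2446 and 3258 of all 18625 probe sets. Under quantile normalization they were 12 and 7, against 2743 and 2651 of all 18625. Among the 9 genes with several probe sets, 9 further probe sets were tested. With the deposited scaling all 9 had a negative difference between experiments, as did 11076 of all 18625 probe sets. Of the 9, 4 were called lower (28.2% of all probe sets). Under CVZ 0 of the 9 were called (7.96% of all), and under RU486 1 was called (4.02%). That 1 was a second probe set of the ATPase Psmc6, higher with RU486 by 0.32 (adjusted p = 0.045), where the chosen set of Psmc6 gave -0.09 (adjusted p = 0.59) and its remaining set 0.54 (adjusted p = 0.055).

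**Figure D5:**
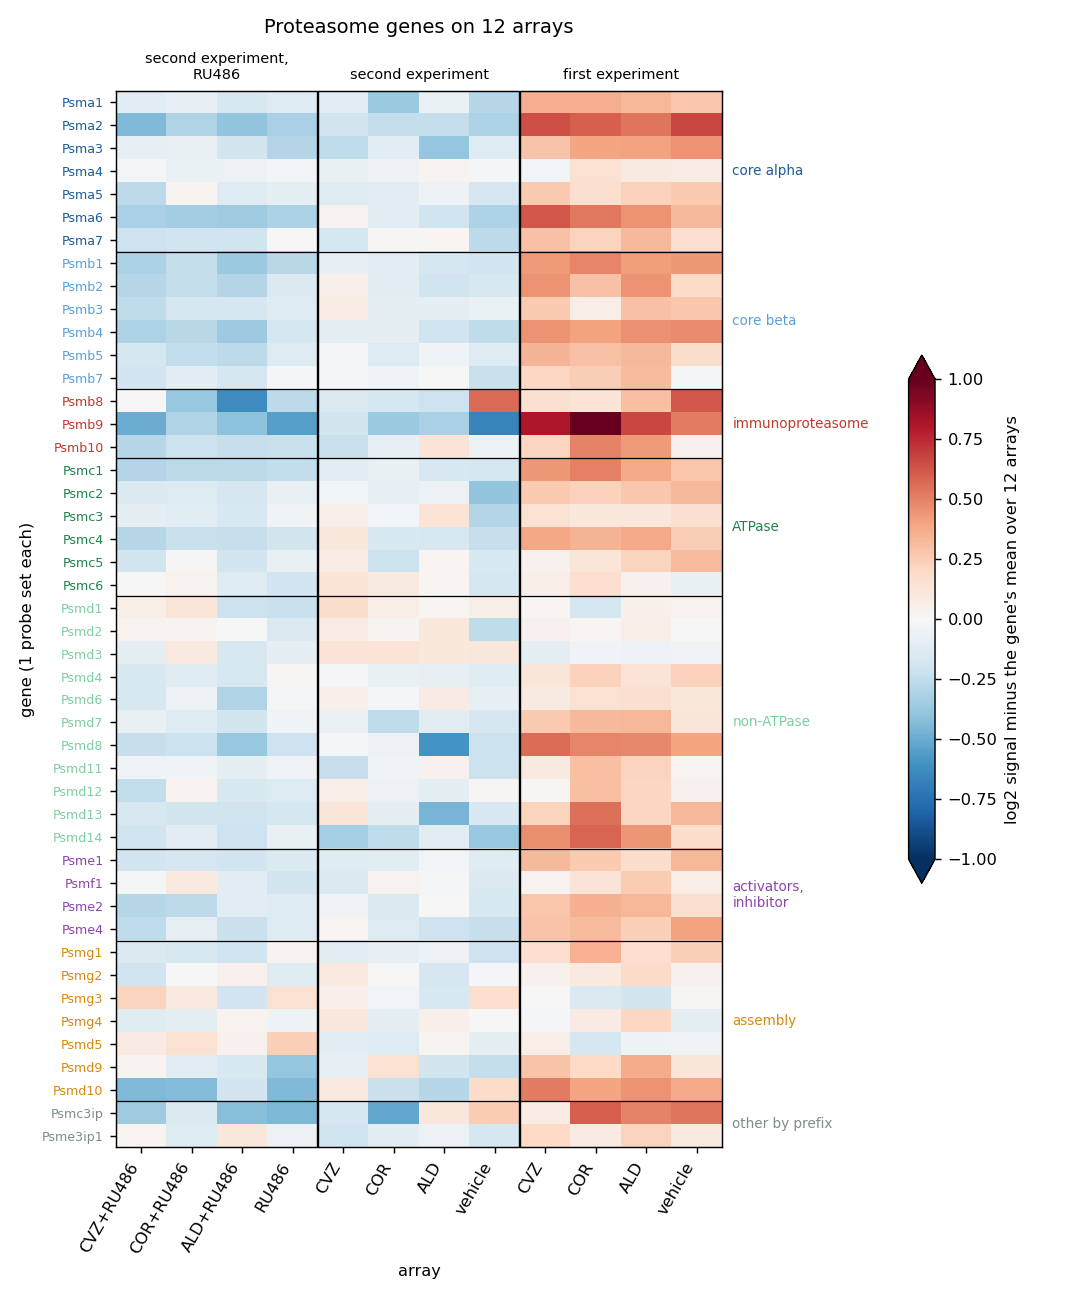
Log2 signal of each of the 46 genes (rows, by class) on the 12 arrays (columns) as the difference from the gene's own mean over the 12 arrays, with colours ending at -1 and 1. Most genes are above their mean in the first experiment, at the right, and Psmd1, Psmd3 and Psmg3 are the 3 with a positive difference between experiments.

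Of 25 partners and regulators of the proteasome, 23 were tested. Against vehicle, CVZ called 0 of them (7.96% of all probe sets), COR 0 (3.39%) and ALD 0 (0.95%). Between ligands, Adrm1 alone was called, higher with CVZ than with ALD (0.87, adjusted p = 0.018 from limma), where 4.25% of all probe sets were called. RU486 over the 4 backgrounds called 1 of the 23 higher and 1 lower, where 4.02% of all probe sets were called. It raised Nfe2l2, the transcription factor of the oxidative stress response, and lowered Pomp, the chaperone of core maturation. Nfe2l2 had 27.1 with CVZ+RU486, 30.2 with COR+RU486, 28.8 with ALD+RU486 and 29.6 with RU486, against 20.6 with CVZ, 21.8 with COR, 23.5 with ALD and 23.5 with vehicle in the second experiment, a difference of 0.37 ± 0.07 (adjusted p = 0.0034). The Pomp signal was 51.1 with CVZ+RU486, 48.9 with COR+RU486, 50.1 with ALD+RU486 and 50.9 with RU486, against 66.1 with CVZ, 65.5 with COR, 56.9 with ALD and 55.3 with vehicle, a difference of -0.27 ± 0.06 (adjusted p = 0.0095). For both genes the 4 RU486 arrays did not overlap the other 4. The same held for Nfe2l1 and Zfand5 (higher) and Usp14 (lower), which were not called. Over all probe sets 5.41% were higher without overlap and 3.6% lower.

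Nfe2l1, the transcription factor that raises proteasome genes when the proteasome is inhibited, had an RU486 difference of 0.28 that was not called (adjusted p = 0.26). Between experiments 11 of the 23 were lower, Uchl5, Pomp and Ngly1 among them (28.2% of all probe sets), and 3 were higher (10.7% of all): Adrm1, a ubiquitin receptor (0.87), Ddi2, the protease that activates Nfe2l1 (0.54), and Ubqln4, a shuttle for ubiquitinated proteins (0.34). Of 6 genes for ubiquitin and its activation the activating enzymes Uba1 and Uba6 alone were tested. Their CVZ differences of 0.11 and -0.34 were not called.

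Of 11 genes of class I antigen processing and its interferon factors, 8 were tested. Irf1, an interferon-induced transcription factor, fell under CVZ and COR and was higher with RU486. Irf1 had 1.19 with CVZ, 1.96 with COR and 2.75 with ALD, against 3.91 with vehicle, in the first experiment, and 1.27 with CVZ, 1.82 with COR and 1.496 with ALD, against 3.27 with vehicle, in the second. After RU486 Irf1 had 2.92 with CVZ, 3.30 with COR, 2.58 with ALD and 3.18 with vehicle.

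The Irf1 difference was -1.49 for CVZ (adjusted p = 0.0004), -0.90 for COR (adjusted p = 0.044) and 0.68 for RU486 over the 4 backgrounds (adjusted p = 0.027). The other 7 were not called under a ligand or RU486. CVZ, COR and RU486 thus each called 1 of the 8, against 7.96%, 3.39% and 4.02% of all probe sets. Tap1, the peptide transporter encoded beside Psmb9, had a CVZ difference of -0.55 (adjusted p = 0.38). Between experiments 5 of the 8 were lower (28.2% of all probe sets, and 56.1% of the band of highest signal), with the lowest values for Erap1, which trims peptides for class I molecules (-1.64), and B2m, their light chain (-0.84).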

How the data were processed

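The deposited values are microarray intensities on a linear scale, MAS5 signals per the submitters' processing notes (version not given in the sources used here). Tested on the values, every array had a median of 1, so the authors had divided each by its median. Probe sets were named from the platform annotation: 20826 had 1 symbol, 436 several and 9780 none. Here values were set to log2 after adding 0.0696 (the 10th percentile of all deposited values), 57 control sets were set aside, and the 18625 of 31042 probe sets with a mean above the 40th percentile (geometric mean 0.630) were fitted with limma 3.58.1 in R 4.3.3 (lmFit, eBayes with trend) by the 8 groups with the experiment as a block. Residual degrees of freedom were 3 and total ones 15.2, so errors lean on the spread shared by all probe sets, and each lone RU486 array was assumed to have the spread of the other groups. The number of arrays limits the precision. The labels name the experiment of each array, and deviations from group means correlated at 0.512 to 0.567 within the first experiment, so arrays were paired by the block. Replicates correlated at 0.946 to 0.950.

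Values on every array are given for genes called under a ligand or RU486, the immune subunits, their standard partners, Psme1 and Psme2, the 3 highest and 3 lowest differences for CVZ and for RU486, and the 3 lowest called between experiments (0 were called higher). The ends of classes and genes of other lists are named as examples. RU486 was compared as the mean of 4 RU486 groups minus the mean of the 4 others. Alternatives were quantile and trimmed-mean scaling, other pseudocounts and filters, no block, no trend, averaged probe sets and leaving out each array. The procedure was tested on simulated data. The members and lists were chosen with earlier results of these data known. Of the 46 genes 17 have a named pseudogene in RefSeq, whose reads by the probes were not separated.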

Additional observations from a re-analysis of the deposited data

How the results depend on the processing

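Of 667 recomputed values, 584 kept their direction and their side of the threshold, or moved by less than the spread. A count of genes was taken as kept where it changed by no more than 1.5-fold, and counts that stayed at 0 are among these. The exceptions were as follows. CVZ against vehicle called 0 of the 46 genes under quantile normalization, with no replicate block and with no trend, and 2 with averaged probe sets (Psma6 and Psmc4). Leaving out 1 array gave 0 to 2, with 0 without either CVZ array and 2 (Psmc2 and Psma6) without the vehicle array of the first experiment. The mean of the 3 ligands called 0 under quantile normalization, trimmed-mean scaling, no filter, no replicate block and no trend, 2 with the filter at the 60th percentile (Psmb7 and Psma6), and 0 to 1 on leaving out an array, with 0 without vehicle of the second experiment or any array of CVZ, COR or ALD. CVZ against ALD gave 0 to 1, with Psmd8 called without ALD of the first experiment. RU486 called 0 under quantile normalization, no filter, no replicate block, no trend and the second experiment alone, and 0 to 1 on leaving out an array. The Psma6 call was lost without any 1 of the 6 ligand arrays, vehicle of the second experiment, CVZ+RU486, COR+RU486 or ALD+RU486.

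With no replicate block the paired arrays are not matched, and Psma6 had an adjusted p of 1 under CVZ, with the same difference. With no block the RU486 differences of Psme3ip1 and Psmd14 were -0.022 and -0.22, and averaged probe sets gave -0.039 for Psmd14. None of these reversed values was called. The core median under CVZ was -0.023 under quantile normalization. Between experiments the core median was -0.17 under quantile normalization, -0.25 under trimmed-mean scaling and -0.54 with averaged probe sets, and the regulatory median was 0.016 and -0.048 under these scalings. Genes without overlap between experiments were 12 lower and 7 higher under quantile normalization (2743 and 2651 of all 18625 probe sets). Under trimmed-mean scaling they were 17 lower and 5 higher (2446 and 3258 of all 18625). Leaving out an array gave 28 to 31 genes lower in the second experiment. The cause of these changes was not tested, except that fewer arrays leave fewer degrees of freedom.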
